A study of Mus musculus with 4 samples.

Results

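Dendritic cell subset genes were taken as 10 named genes, found by symbol in the count files of 4 libraries, where they were 10 of 26214 symbols. They were Clec9a, Batf3, Irf8 and Itgae for type 1 conventional dendritic cells, Flt3 and Zbtb46 for conventional dendritic cells in general, Cd209a for type 2 cells, Siglech for plasmacytoid cells, and Fscn1 and Cd86 for mature cells. The libraries came from the stromal vascular fraction of mouse inguinal white adipose tissue, the cells of digested fat that by definition exclude floating adipocytes. Adipocyte transcripts were nevertheless abundant in all 4 libraries, with the adipokine gene Adipoq at 1462 to 4229 CPM (counts scaled to library size) and 8 adipocyte genes taking 1.60 to 3.81% of counts, against what the label of the fraction implies. A medicinal herb extract (MHE) had been given to the animals of 2 libraries and phosphate-buffered saline (PBS) to those of the other 2, and the labels call the 2 libraries of a group biological replicates. Libraries held 27161882 to 33391075 counts. The labels state no strain, age, sex, diet, dose or duration and not what the extract contains, nor do they say whether a library holds 1 animal or a pool. The question was how transcripts of the dendritic cell subsets differed between extract and saline.

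Dendritic cells take up antigen in tissues and carry it to lymph nodes, where they present it to T cells. Type 1 conventional cells depend on the transcription factors Batf3 and Irf8 and are known for presenting antigen of dead or infected cells to CD8 T cells. Type 2 cells mainly address CD4 T cells, and plasmacytoid cells are a lymphoid-tissue and blood population known for making type I interferon after sensing viral nucleic acid. On maturation, dendritic cells raise costimulatory molecules such as Cd86 and the actin-bundling protein Fscn1, and move through lymphatic vessels to lymph nodes. Inguinal fat contains a lymph node. Several of the 10 genes are also made by other cells: Itgae by CD8 and regulatory T cells, Irf8 and Cd86 by B cells and macrophages, Zbtb46 by endothelial cells and Fscn1 by several stromal cells.

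Promoter windows of Clec9a, Cd209a and Siglech are shown because these genes stand for the type 1, type 2 and plasmacytoid subsets in the comparison. Each is 300 bases, 250 before a RefSeq transcript start and 50 from it, written 5′ to 3′ on the gene's strand (RefSeq, GRCm38.p6), with motif matches in capitals. They lie at chr6:129408612-129408911 (Clec9a, plus strand), chr8:3748935-3749234 (Cd209a, minus strand) and chr7:55767934-55768233 (Siglech, plus strand).
Clec9a: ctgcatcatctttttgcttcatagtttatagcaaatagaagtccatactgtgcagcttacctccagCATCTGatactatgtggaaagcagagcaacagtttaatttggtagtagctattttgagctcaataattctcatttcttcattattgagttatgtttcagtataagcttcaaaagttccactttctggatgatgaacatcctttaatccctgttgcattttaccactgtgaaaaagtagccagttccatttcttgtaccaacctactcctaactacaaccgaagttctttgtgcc
Cd209a: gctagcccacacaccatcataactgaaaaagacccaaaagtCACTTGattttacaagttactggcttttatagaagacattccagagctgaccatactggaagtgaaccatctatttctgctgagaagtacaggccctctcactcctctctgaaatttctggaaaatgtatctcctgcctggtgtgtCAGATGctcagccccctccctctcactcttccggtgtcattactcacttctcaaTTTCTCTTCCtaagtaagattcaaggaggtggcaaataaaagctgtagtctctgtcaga
Siglech: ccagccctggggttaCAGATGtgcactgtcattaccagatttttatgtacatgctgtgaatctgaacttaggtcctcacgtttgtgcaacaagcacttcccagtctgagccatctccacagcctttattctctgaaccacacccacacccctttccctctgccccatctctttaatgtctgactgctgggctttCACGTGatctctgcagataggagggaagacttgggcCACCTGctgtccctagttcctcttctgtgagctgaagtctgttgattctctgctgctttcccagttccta

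Motifs were searched as letters on both strands, N standing for any base. They were GAAA followed after 2 bases by GAAA (interferon regulatory factors), GGAA followed after 2 bases by GAAA (the composite element of PU.1 with an interferon regulatory factor), TGANTCA (AP-1, the family of Batf3), GAGGAAGT (PU.1) and CANNTG (E-box, bound by Tcf4 among others). The Cd209a window held 1 composite element, from base 242 and so reaching over the transcript start, and such an element stood in 2.72% of 32851 promoter windows of this length. Siglech had 3 E-boxes, Cd209a 2 and Clec9a 1, and 72.3% of all windows had at least 1. Of the other members, Zbtb46 had 1 AP-1 match (7.81% of all windows), and Batf3, Flt3, Fscn1 and both windows of Irf8 held none of the 4 motifs other than the E-box. Itgae and Cd86 had no window in the table. A match is a description of letters and not evidence of binding.

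All 10 genes had enough counts to be tested, and 5 were higher with the extract: Itgae, Siglech, Flt3, Irf8 and Cd86. None was lower. The test was edgeR's quasi-likelihood test with Benjamini-Hochberg adjustment over 16196 genes and a threshold of 0.05, which called 3.97% of all tested genes higher with the extract, 0.963% lower and 4.93% in either direction. The members' median log2 fold change was 1.81, beside -0.02 over all tested genes. In 9 of 10 members both extract libraries lay above both saline libraries, as in 33.3% of tested genes, and Zbtb46 overlapped. In 0 members both extract libraries lay below both saline libraries, as in 28.7% of tested genes. Together the members took 0.0702% (95% exact binomial interval 0.0693 to 0.0712) and 0.0607% (0.0598 to 0.0616) of counts in the extract libraries, and 0.0175% (0.0170 to 0.0180) and 0.0162% (0.0158 to 0.0167) in the saline libraries. Intervals cover counting error only, and with bulk tissue fewer cells of a type and less RNA per cell cannot be told apart.

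**Figure D1:**
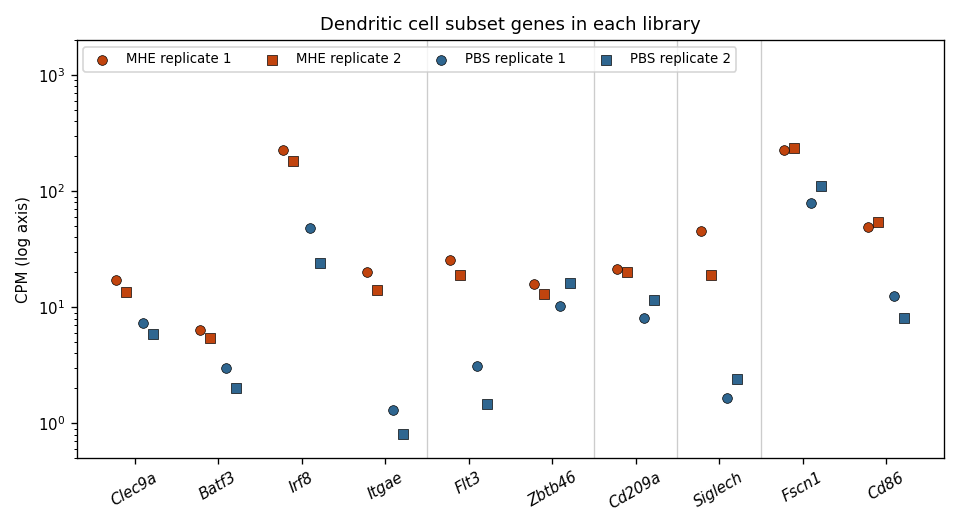
CPM (counts scaled to library size with TMM factors, log axis) of the 10 genes in each of the 4 libraries, with 1 point per library; vertical lines separate type 1, shared conventional, type 2, plasmacytoid and mature markers. Extract and saline points are separate for every gene but Zbtb46, where the saline libraries stand at 10.4 and 16.2 CPM around the extract libraries.

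The 4 type 1 genes did not move by the same amount. Itgae encodes the integrin chain CD103, which pairs with beta 7 to bind E-cadherin (chromosome 11, 73090505 to 73147449, GRCm38.p6, the assembly behind mm10). It stood at 20.3 and 14.1 CPM in extract replicates 1 and 2 and at 1.29 and 0.811 in saline replicates 1 and 2. The extract libraries were thus far above both saline libraries, which held 36 and 24 counts. Its log2 fold change was 4.02 ± 0.40 (SE), or 16.3-fold (adjusted p = 0.0214). Irf8, the transcription factor on which type 1 cells depend (chromosome 8, 120736358 to 120756694), had 227 and 182 CPM with the extract and 47.9 and 24.1 with saline. Both extract values exceeded both saline values, and the log2 fold change was 2.51 ± 0.40 (adjusted p = 0.0426).

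The other 2 type 1 genes did not pass the test. Clec9a, a receptor for actin exposed on dead cells (chromosome 6, 129408862 to 129424764), had 17.2 and 13.6 CPM with the extract and 7.33 and 5.88 with saline. The groups did not overlap, with a log2 fold change of 1.22 (95% interval 0.52 to 1.92, adjusted p = 0.0702). In GENCODE vM21 it shares 184 exonic bases with Clec1b on the same strand, and Clec1b had 206, 57, 17 and 4 counts in extract replicates 1 and 2 and saline replicates 1 and 2. Batf3, the partner factor of Irf8 in type 1 cells (chromosome 1, 191098414 to 191108943), had the lowest counts of the members with the extract, with 212 and 155 counts in extract libraries and 84 and 60 in saline libraries. These were 6.38 and 5.44 against 3.02 and 2.03 CPM, and the log2 fold change was 1.22 (0.24 to 2.21, adjusted p = 0.127). Whether Itgae differed from Clec9a in its change was not tested.

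Of the genes shared by conventional cells, Flt3 rose and Zbtb46 did not differ detectably. Flt3 is the receptor for the growth factor that drives dendritic cell development and is also present on early blood progenitors (chromosome 5, 147330741 to 147400489). It had 25.5 and 18.9 CPM with the extract against 3.09 and 1.45 with saline, and both saline libraries were low. The log2 fold change was 3.28 ± 0.45 (adjusted p = 0.0332), and 3.92 without saline replicate 1. Zbtb46, a zinc finger factor of conventional dendritic cells and of endothelium (chromosome 2, 181371009 to 181493262), had 16.01 and 12.98 CPM with the extract and 10.4 and 16.2 with saline. Its highest and lowest values were both saline libraries, and the log2 fold change of 0.13 had a 95% interval of -0.65 to 0.90 (adjusted p = 0.806). Its sign turned without extract replicate 1 (-0.02) and without saline replicate 1 (-0.17). Beside it, the summed level of 8 blood endothelial markers was 823 CPM in saline replicate 1, 1522 in saline replicate 2, and 814 and 816 with the extract, all 8 with negative log2 fold changes and 0 of 8 past the threshold. The part of endothelial transcripts in the Zbtb46 values was not tested.

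Cd209a, a C-type lectin of type 2 and monocyte-derived dendritic cells (chromosome 8, 3743395 to 3748984), had 21.5 and 20.2 CPM with the extract and 8.09 and 11.6 with saline. Extract libraries were close together and above saline libraries, and the log2 fold change was 1.08 (95% interval 0.40 to 1.75, adjusted p = 0.0824), short of the threshold. Cd209a belongs to a cluster of similar lectin genes, so reads may have been divided among them in ways the files do not show. Of 6 other family members, Cd209b and Cd209e rose, and with median-of-ratios factors 1 of 6 did. Cd209b, a lectin of marginal zone and lymph node sinus macrophages, was at 487 and 255 CPM with the extract against 14.3 and 20.1 with saline (log2 fold change 4.43, adjusted p = 0.0218). Cd209e had a log2 fold change of 2.41 at an adjusted p of 0.04995, just under the threshold. Cd209c and Cd209d, with 0.46 and 0.68, did not pass.

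Siglech, a sialic acid-binding receptor that marks mouse plasmacytoid dendritic cells and some macrophages (chromosome 7, 55768154 to 55779448), was among the 2 members that moved most. Extract replicate 1 had 45.2 CPM and extract replicate 2 had 18.95, while saline libraries had 1.65 and 2.43. No other member differed as much between the extract libraries (1.25 on the log2 scale), yet the lower of them was well above both saline libraries. The log2 fold change was 3.97 ± 0.53, or 15.6-fold (adjusted p = 0.0329), and 3.22 without extract replicate 1.

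Of the mature-cell genes, Cd86 rose and Fscn1 did not pass the test. Fscn1, fascin, bundles actin in the dendrites of mature cells (chromosome 5, 142960355 to 142973189). It had 228 and 238 CPM with the extract and 78.9 and 111 with saline. The groups were separate, with a log2 fold change of 1.29 (95% interval 0.62 to 1.97), and the adjusted p of 0.0595 missed the threshold. Cd86, which costimulates T cells through CD28 (chromosome 16, 36568956 to 36666158), had 49.3 and 54.4 CPM with the extract against 12.6 and 8.04 with saline. Its log2 fold change was 2.33 ± 0.29 (adjusted p = 0.0259), a 5.01-fold rise.

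**Figure D2:**
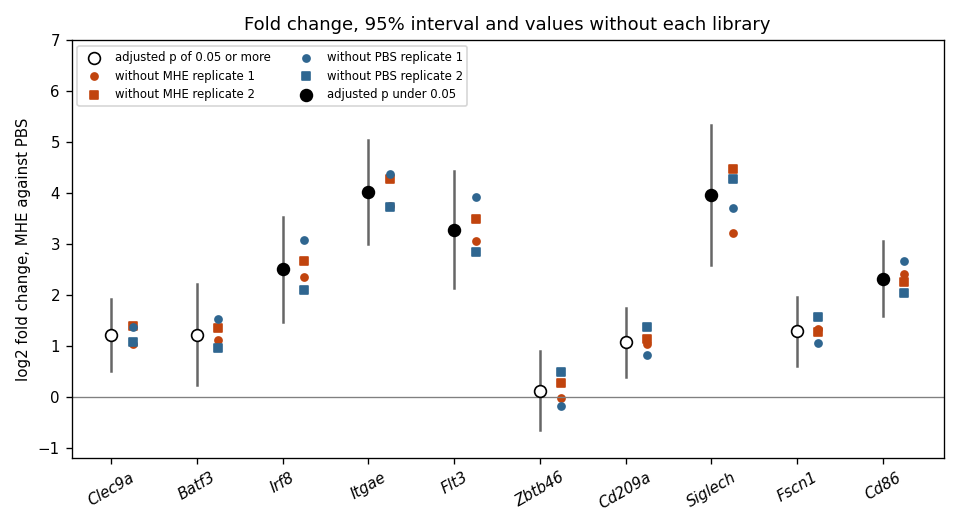
Log2 fold change of extract over saline for each gene (large points, filled where the adjusted p was under 0.05) with its 95% interval (bars), and small points for the fit without each library in turn. The intervals of Itgae, Flt3 and Siglech start above 2, the interval of Zbtb46 spans 0, and the points without a library stay on the same side of 0 for the other 9 genes.

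Which members passed depended on the libraries and the tool. Without extract replicate 1 or extract replicate 2, 0 members passed the edgeR test (7 and 8 had an unadjusted p under 0.05), as did 0 of all genes (2352 and 2596 at an unadjusted p under 0.05). Without saline replicate 1 the log2 fold change of Clec9a was 1.37. Without saline replicate 2 those of Cd209a and Fscn1 were 1.37 and 1.56. DESeq2 called 8 members, adding Clec9a, Cd209a and Fscn1 with adjusted p of 0.0106, 0.0255 and 4.97e-04, where it called 11.2% of genes higher.

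Single markers of the subsets were set against each other by ratios within a library, in which the scaling between libraries cancels. For 6 pairs of Clec9a, Cd209a, Siglech and Fscn1 the log2 ratio of counts was compared between groups. Clec9a was the only type 1 gene in these pairs. Its log2 fold change was 1.22, beside 1.22 for Batf3, 2.51 for Irf8, 4.02 for Itgae and 3.97 for Siglech. Its ratios therefore do not stand for the type 1 genes as a set. The ratios to Siglech differed most between groups. The log2 ratio of Clec9a to Siglech was -1.39 and -0.48 in extract replicates 1 and 2 and 2.14 and 1.27 in saline replicates 1 and 2, a difference of -2.64. That of Cd209a to Siglech was -1.07 and 0.09 against 2.28 and 2.25, a difference of -2.75, and that of Fscn1 to Siglech 2.33 and 3.65 against 5.561 and 5.498, a difference of -2.54. Each of these 3 ratios was lower in both extract libraries than in both saline libraries, and the 3 share Siglech. Without extract replicate 1 the differences were -2.18, -2.17 and -1.88, and without extract replicate 2 they were -3.09, -3.33 and -3.20. An exact two-sided permutation test gave p = 0.333 for each, the smallest that 2 libraries against 2 allow, and 0.5 after adjustment over the 6 pairs.

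Ratios among type 1, type 2 and mature markers differed by smaller amounts. The log2 ratio of Clec9a to Cd209a was -0.32 and -0.57 with the extract and -0.14 and -0.98 with saline, so that the extract libraries lay between the saline libraries (difference 0.12, exact permutation p = 1). The ratio of Fscn1 to Clec9a likewise overlapped (difference 0.10, exact permutation p = 1). The first turned negative without extract replicate 1 (-0.009468) and without saline replicate 2 (-0.30), and the second without extract replicate 2 (-0.10) and without saline replicate 1 (-0.31). Fscn1 to Cd209a was 3.40 and 3.56 against 3.28 and 3.25, higher in both extract libraries by a mean of 0.21 (exact permutation p = 0.333). With 2 libraries a group these tests cannot show that the markers moved alike.

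**Figure D3:**
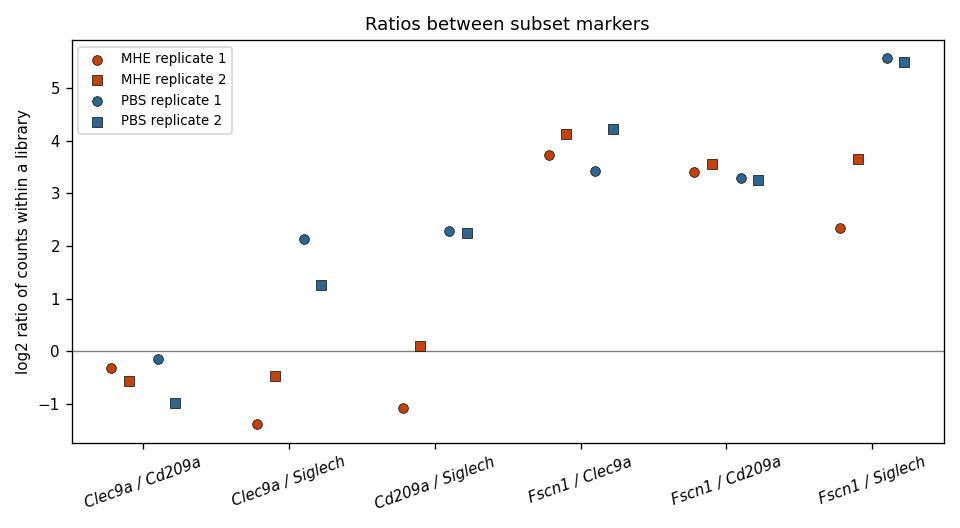
Log2 ratio of the counts of 2 markers within each library, for 6 pairs, with 1 point per library. In the 3 pairs with Siglech the extract points lie below the saline points by 2.54 to 2.75 on average, and in Clec9a / Cd209a and Fscn1 / Clec9a the groups overlap.

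Levels of different genes were compared per kilobase of exon, using the union of GENCODE vM21 exons, which may differ from the authors' gene models. With the extract Fscn1 was highest at 77.2 ± 2.36 CPM per kilobase (mean ± SD, n = 2) and Irf8 next at 29.0 ± 4.49. Cd86 (14.2 ± 0.981), Cd209a (13.2 ± 0.584) and Siglech (9.48 ± 5.49) followed, and these 3 lay within the spread of Siglech. Clec9a was at 4.68 ± 0.780, and Itgae (3.75 ± 0.963), Batf3 (3.70 ± 0.416) and Flt3 (3.59 ± 0.760) did not differ beyond their spread, with Zbtb46 lowest at 1.70 ± 0.251. With saline Fscn1 was again highest (31.5 ± 7.48), Cd209a was second (6.22 ± 1.58) and Irf8, Cd86 and Clec9a came next at 5.10 ± 2.39, 2.82 ± 0.883 and 2.01 ± 0.312. Siglech (0.604 ± 0.163), Flt3 (0.368 ± 0.187) and Itgae (0.230 ± 0.0745) were the lowest, below Batf3 (1.58 ± 0.439) and Zbtb46 (1.56 ± 0.482).

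The summed transcripts of 10 pan-leukocyte genes were also higher with the extract (Ptprc, which encodes CD45, Coro1a, Laptm5, Cd53 and 6 others). The members were therefore counted per 1000 counts of these genes. The summed level of these genes was 4040 and 3461 CPM in the extract libraries, 1498 in saline replicate 1 and 554 in saline replicate 2. The median of their log2 fold changes was 2.00, each above 0, and 0 of 10 passed the edgeR test, although 8 had an unadjusted p under 0.05. The count was 9 with DESeq2, 2 with limma-voom, 10 without saline replicate 1 and 5 without saline replicate 2. Ptprc had 3.002 (adjusted p = 0.0508), and Itgb2, a leukocyte integrin chain, had 0.29. The summed level of 13 macrophage and monocyte genes overlapped between groups, with a median log2 fold change of -0.04. How far the mix of leukocytes behind the denominator differed between groups was not tested. On this scale the members fell into 3 sets. Itgae, Siglech, Flt3 and Irf8 were higher in both extract libraries than in both saline libraries, with differences of mean log2 values of 2.01, 1.83, 1.34 and 0.55. Clec9a, Batf3 and Zbtb46 were lower in both, with differences of -0.82, -0.79 and -1.88. Cd209a, Fscn1 and Cd86 overlapped. The summed CPM of the denominator was 3.7 times as high with the extract, so a gene that rose by less comes out lower. In CPM, Clec9a and Batf3 were higher in both extract libraries, and Zbtb46 overlapped. How many of all genes fall into each set was not counted. The non-member Xcr1, a type 1 marker like Clec9a, was higher in both extract libraries per leukocyte count, by 1.36. Clec9a, for example, had 4.26 and 3.92 counts per 1000 leukocyte counts with the extract and 4.90 and 10.6 with saline, and Siglech 11.2 and 5.48 against 1.10 and 4.39. With Ptprc alone as the denominator, Irf8 and Cd86 turned to -0.60 and -0.82. Itgae, Siglech and Flt3 then stood at 0.87, 0.69 and 0.19. The groups of Siglech, Flt3 and Xcr1 (0.21) overlapped, and of the members Itgae alone stayed higher in both extract libraries. The other members were lower in both, now including Cd209a (-2.08) and Fscn1 (-1.86), so the 3 sets depended on the denominator. These are descriptions without a test.

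**Figure D4:**
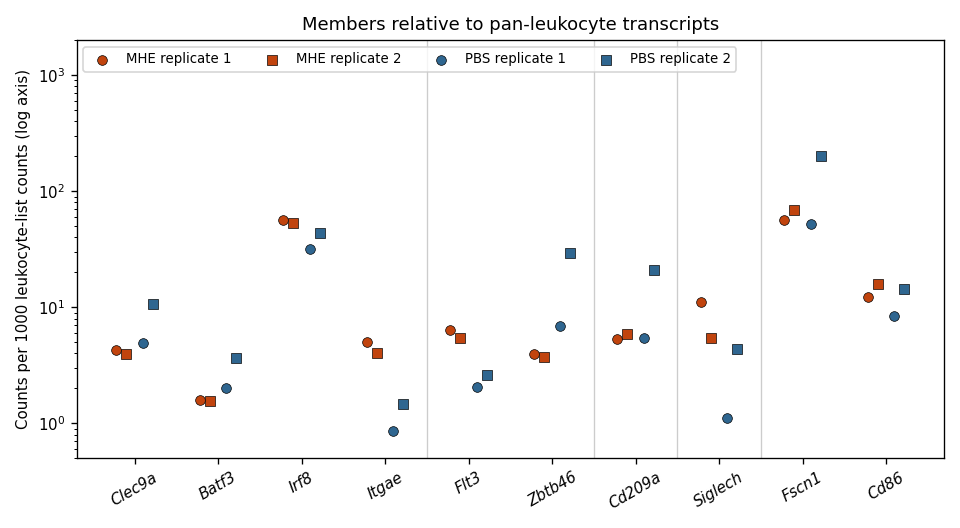
Counts of each gene per 1000 counts of 10 pan-leukocyte genes (log axis), with 1 point per library. Clec9a, Batf3 and Zbtb46 are lower in both extract libraries, and Itgae, Irf8, Flt3 and Siglech are higher. Saline replicate 2 is the highest library for Clec9a (10.6), Batf3 (3.66), Zbtb46 (29.1), Cd209a (21.0) and Fscn1 (200 counts per 1000).

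The saline libraries split the members. Itgae, Clec9a, Batf3, Irf8, Flt3 and Cd86 were higher in saline replicate 1, with log2 ratios of replicate 1 to replicate 2 from 0.32 (Clec9a) to 1.09 (Flt3). Zbtb46, Cd209a, Siglech and Fscn1 were higher in saline replicate 2, with log2 ratios from -0.64 (Zbtb46) to -0.49 (Fscn1). The summed level of pan-leukocyte genes was 2.70 times and that of 13 macrophage and monocyte genes 1.83 times as high in saline replicate 1 as in saline replicate 2. For 7 lymph node stroma genes it was 145 CPM against 14.5. Most of that difference came from Ccl21a, at 124 CPM in saline replicate 1 and 1.22 in saline replicate 2. Ccl21a also stands in the lymphatic endothelial list. Cxcl13, of the same stroma list, had 18.1 and 12.9 CPM. The part of these differences in the members' values was not tested.

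Other genes of each subset were read from lists that were drawn up with earlier results of these data known. Of 13 tested type 1 genes, Xcr1, the chemokine receptor that most narrowly marks type 1 cells, rose from 1.98 and 0.980 to 18.4 and 11.6 CPM (log2 fold change 3.34 ± 0.49, adjusted p = 0.0375). No other type 1 gene passed, and the median was 0.25. Wdfy4, needed for cross-presentation and also made by B cells, had 2.58 at an adjusted p of 0.0508, and the adhesion molecule Cadm1 and the RNA sensor Tlr3 had -0.77 and -0.30. Without saline replicate 1 the number past the threshold was 6 and without saline replicate 2 it was 5.

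Of 14 type 2 genes, 4 rose and the median was 0.04. Irf4, a factor of type 2 cells that activated lymphocytes and plasma cells also make, was at 53.5 and 79.3 CPM with the extract against 12.2 and 19.8 with saline (2.05 ± 0.34, adjusted p = 0.0439). The surface markers Sirpa (0.02), Clec10a (0.05) and Mgl2 (-0.16) did not pass, and for each the groups overlapped. The other 3 that rose were the receptor gene Notch2 (1.56), the NF-kappa B gene Relb (1.65) and Cd4 (5.17), the co-receptor of helper T cells, the 3 being named with their values known. Cd4 also stands in the T cell list.

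Of 14 tested plasmacytoid genes, 2 rose and the median was 0.51. Tcf4, the E protein that specifies plasmacytoid cells but is widely made in stroma, had -0.48 with overlapping groups. Ccr9, a gut-homing chemokine receptor of plasmacytoid cells and T cells, had 16.04 and 10.3 CPM against 0.791 and 0.0676, the last from 2 counts (log2 fold change 4.94, adjusted p = 0.0584). Bst2, an interferon-inducible surface protein, had 0.59, and the factor Runx2 -0.27. The 2 that rose were Tlr9, a DNA sensor of plasmacytoid and B cells (3.12 ± 0.28, adjusted p = 0.0210), and Pacsin1 (4.19 ± 0.65, adjusted p = 0.0409), both named with their values known. Without saline replicate 1 and without saline replicate 2 the number was 8 and 6.

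The list of mature and migratory cells had the most genes past the threshold of the 5 dendritic cell lists. Of 17 tested genes 10 rose, beside 3.97% of all tested genes. All 17 had both extract libraries above both saline libraries, beside 33.3% of all tested genes, and the median was 2.61. So did 8 of 13 type 1, 6 of 14 type 2, 7 of 14 plasmacytoid and 8 of 17 development genes. In these 4 lists 2, 1, 1 and 0 genes had both extract libraries below, beside 28.7% of all tested genes. Ccr7, the receptor that guides mature dendritic cells and naive lymphocytes to lymph nodes, was at 154 and 134 CPM with the extract against 6.72 and 1.05 with saline (5.21 ± 0.91, adjusted p = 0.0480). Cd40, through which helper T cells license dendritic cells and which B cells also carry, had 3.37 ± 0.53 (adjusted p = 0.0424). Cd83 (1.32) and Cd80 (1.10), both induced on maturation, did not pass. The chemokine gene Ccl22, at 89.3 and 69.6 against 9.70 and 4.02 CPM, and the amino acid oxidase gene Il4i1, at 97.4 and 58.4 against 4.60 and 2.53, were among the 10 and are named with their values known.

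Of 17 tested genes of dendritic cell development, 2 rose, with a median of 0.40. They were Ikzf1, the lymphoid factor Ikaros (3.495), and the receptor subunit gene Csf2rb2 (1.34), named with their values known, and the number was 5 without saline replicate 1 and 4 without saline replicate 2. Flt3l, the ligand of Flt3, had 12.2 and 8.98 CPM with the extract against 5.82 and 4.46 with saline (1.04, adjusted p = 0.120). Spi1, which encodes PU.1, had 0.34 with overlapping groups, and the factors Id2 and Nfil3 had 1.05 and -0.21. Itgax, the CD11c gene used to recognise dendritic cells and also made by lipid-laden macrophages, was highest in saline replicate 1 (105 CPM, against 19.4 in saline replicate 2 and 17.5 and 28.1 with the extract) and is named with its values known.

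**Figure D5:**
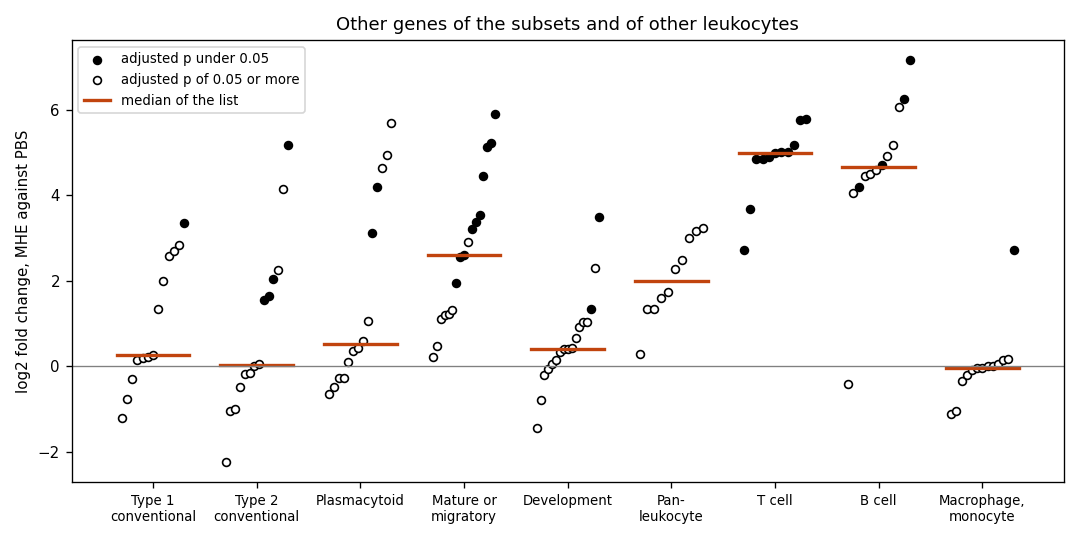
Log2 fold change of each tested gene (points, filled where the adjusted p was under 0.05) in 5 dendritic cell lists and 4 lists of other leukocytes, with the median of each list as a line. The mature list has a median of 2.61 with 10 of 17 genes past the threshold, the T cell list 4.99 with 11 of 11, and the macrophage and monocyte list -0.04 with 1 of 13.

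Summed levels of T cell, B cell and lymph node stroma markers were also higher with the extract. Those of macrophage, Langerhans cell and adipocyte markers were not. The summed level of 11 T cell genes was 757 to 996 CPM with the extract and 27.6 to 48.7 with saline, all 11 rose, and Cd3e, Cd8a and Cd3d stood at log2 fold changes of 5.01, 5.79 and 4.88. The 12 B cell genes summed to 1810 to 2190 CPM with the extract and 220 to 234 with saline, with 4 past the threshold (Cr2, Cd22, Fcer2a and Bank1). The B cell count was 11 without either saline library alone, 10 with DESeq2, 7 with limma-voom and 2 with no low-count filter. Lymph node stroma genes summed to 479 to 818 against 14.5 to 145 CPM with 3 of 6 tested genes past the threshold (Glycam1, Cxcl13 and Tnfsf11). Of these sums Ccl21a, which did not pass, held 629 and 375 CPM with the extract and 124 and 1.22 with saline. Among the stroma genes the venule mucin gene Glycam1 had 0 counts in saline replicate 2, Madcam1 had 0 in saline replicate 1, and Ccl19 was at 0 in every library. The 13 macrophage and monocyte genes overlapped (1332 to 1790 against 1190 to 2175 CPM) and 1 rose, the monocyte and T cell gene Ly6c2. The Langerhans cell lectin Cd207 had 123, 13, 14 and 0 counts in extract replicates 1 and 2 and saline replicates 1 and 2. Of 8 natural killer and innate lymphoid genes Eomes, Prf1 and Il18r1 rose, of 7 lymphatic endothelial genes Lyve1 rose, and of 5 Langerhans cell genes 0 did. Without saline replicate 1 the counts were 6 for lymph node stroma, 7 for natural killer, 5 for lymphatic and 1 for Langerhans genes, and without saline replicate 2 they were 5, 3, 4 and 1. Without either extract library no gene of these lists passed. Mature adipocyte genes summed to 15270 to 20880 CPM with the extract and 30260 to 43020 with saline, of which Adrb3 rose and Lep fell. Genes of these lists that passed the test were named with their values known where they stand after the first 4 of a list. The part of lymph node or lymphocyte transcripts in the members' values was not tested.

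Genes with the most similar profile over the 4 libraries were found by the Euclidean distance between centred log2 CPM values among 14744 genes. For Clec9a they were Asf1b, H2-T23 and Sirt7 at distances of 0.04 to 0.08. For Cd209a they were Csnk1g1, Rhbdf2 and Spata5l1 (0.05 to 0.07), and for Fscn1 Cd38, Cemip2 and Bcl2 (0.06 to 0.14). Siglech had no neighbour as near: Mei4 and Ttc6, both at 0 CPM with saline, and Serpina1e lay at 0.38 to 0.41, and Serpina1e belongs to a cluster of near-identical genes. H2-T23 belongs to a family of similar genes as well. With 4 libraries, many genes have close profiles.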

How the data were processed

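Values are raw whole-number counts as deposited by the authors, 1 for each of 26214 gene symbols in 4 libraries totalling 27161882 to 33391075. TopHat2, edgeR and limma and the build mm10 are named, without versions, per the submitters' processing notes. Counter, annotation and strandedness: not given in the sources used here. Reads of similar or overlapping genes therefore cannot be separated. Per the labels' protocols, RNA was isolated with Trizol and libraries were made in triplicate. 2 per treatment were analysed here.

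From these counts, edgeR 4.0.16 (R 4.3.3) was fitted to all 4 libraries with group as the only term, after filterByExpr (at least 10 counts, 15 in total) and TMM scaling, by the robust quasi-likelihood method. Adjusted p is Benjamini-Hochberg over 16196 genes, SE is the log2 fold change over the square root of F, and CPM uses the TMM factors. Ratios within a library used a prior count of 0.5, and the profile search log2 CPM with a prior count of 2. The members, lists and tests were chosen with earlier results of these data known. The text names all 10 members, the first 4 non-members of a list, the 3 nearest profiles, and others said to be named with their values known. Every pair of libraries differed beyond sampling noise (chi-square per degree of freedom 135 to 527). P-values measure the spread between libraries labelled as biological replicates. As alternatives, DESeq2 1.42.0, limma-voom (limma 3.58.1), scaling by median-of-ratios factors or by library totals, other count filters, a replicate block, the newer quasi-likelihood setting, and leaving out each library were tried. The last leaves a single library in its group, assumed to vary like the other group.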

Additional observations from a re-analysis of the deposited data

How the results depend on the processing

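Directions of 9 members held under every alternative run, and Zbtb46 turned without extract replicate 1 (-0.02) and without saline replicate 1 (-0.17), its left-out values reaching 0.49. The members' median log2 fold change of 1.81 moved by less than the spread between replicates in each of 12 alternatives (1.78 to 2.10). Library totals moved the median of all genes from -0.02 to 0.14 and that of the members to 1.97, with Fscn1 past the threshold (adjusted p = 0.0383). DESeq2 called 8 members higher against 5, and leaving out a library gave 0 to 7. Over all genes, the 643 higher calls became 1714 with DESeq2 and 0 to 1753 without a library, and the 156 lower calls became 1237 with DESeq2, 243 with limma-voom and 0 to 1233 without a library. The type 1 list had 1 gene past the threshold, 5 with DESeq2, 3 with limma-voom, 2 with no low-count filter, the stricter filter, the replicate block and the newer quasi-likelihood setting, and 0 to 6 without a library. The plasmacytoid list had 2, 6 with DESeq2, 5 with limma-voom and 0 to 8 without a library. The development list had 2, 4 with DESeq2 and 0 to 5 without a library. Without a library the type 2 list had 0 to 6 and the mature list 0 to 12. The ratio of Clec9a to Cd209a (difference 0.12) ran from -0.30 (without saline replicate 2) to 0.54, with -0.009468 without extract replicate 1, and that of Fscn1 to Clec9a (0.10) from -0.31 (without saline replicate 1) to 0.50, with -0.10 without extract replicate 2. The ratio alternatives and the Ptprc denominator, with which Irf8 (-0.60) and Cd86 (-0.82) turned, were chosen after seeing the data.

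With the replicate block, Siglech had a log2 fold change of 3.85 and lost its call (adjusted p = 0.0573), which left 4 members past the threshold. The labels give groups the same replicate numbers without saying that a number marks a shared animal or batch, and deviations of same-numbered libraries correlated at 0.120 over genes, so the numbers were not taken to pair libraries. The fewest counts behind a member were 36 and 24, for Itgae with saline.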
